A study of Caenorhabditis elegans with 4 samples.

Results

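The lipase genes lips-6 and lips-11 and the fatty acid carrier gene lbp-8 stood higher in unstressed VZ1 than in unstressed N2 Caenorhabditis elegans. Under arsenite stress only lips-11 was also listed as higher in the VZ1 strain. These 3 genes, of 302 gene names in the deposited tables, were chosen by their FPKM values in VZ1 and N2, as genes related to fat breakdown that were higher in VZ1. Their strain values are therefore a description only. The RNA sequenced came from whole young adult animals. N2, the wild-type strain, and VZ1, known as a strain with a deletion in the thioredoxin gene trx-1, were each kept unstressed on the bacterial food OP50 or stressed with 10 mM NaAs (sodium arsenite, which causes oxidative stress) for 5 h. Each of these 4 groups had 1 library, so that no value has a replicate check. The values are FPKM (fragments scaled to the exon length of the gene and to the fragments mapped in the library), given in 4 tables that each set a pair of libraries side by side and list only the genes the authors called significant. A gene that a table does not list has no value in it. The depth of the libraries is unknown. No table lists trx-1, so that the strain labels could not be checked on it.

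Worms store fat as triglyceride, mainly in the intestine, and lipases release fatty acids from it. The lips genes are named for their likeness to lipases, and the lipl genes encode lipases of the lysosome. Fatty acids and their derivatives are carried through the cell by small lipid-binding proteins such as those of the lbp genes. LBP-8 is known to carry a lipid signal from the lysosome, where the lipase LIPL-4 acts, to the nucleus, where the nuclear receptors NHR-49 and NHR-80 respond to it.

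The lipase gene lips-6 (ZK617.2, WBGene00014009) stood at 7.34 FPKM in unstressed N2 and at 81.1 FPKM in unstressed VZ1. Stressed VZ1 had 2.63 FPKM, and no value is listed for stressed N2. Unstressed VZ1 was thus the highest of the libraries with a value, and stressed VZ1 lay below unstressed N2. The gene lies on chromosome IV at 12014182 to 12015952 of build ce10 in the strain table and is a single-gene locus. It is annotated on the minus strand with 4 exons and 1 transcript.

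The lipase gene lips-11 (T13B5.5, WBGene00020472) is the member with a value in every library. It stood at 2.10 FPKM in unstressed N2, 1.89 FPKM in stressed N2, 20.7 FPKM in unstressed VZ1 and 17.1 FPKM in stressed VZ1. Both VZ1 libraries were above both N2 libraries. Within a strain the stressed value was slightly below the unstressed one. Those values come from strain tables normalised separately, so no fall is read from so small a difference. Its locus, on chromosome II at 1108846 to 1110998 of ce10, is the same in both strain tables. The gene is annotated on the minus strand with 5 exons. The next genes in order on the chromosome, lips-12 and lips-13, belong to the same family and are listed in none of the tables.

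The carrier gene lbp-8 (T22G5.6, WBGene00002260) stood at 4.56 FPKM in unstressed N2 and 48.8 FPKM in unstressed VZ1. It is listed in no other comparison, so that its level under arsenite is not known from these tables. Its locus is on chromosome V at 13890764 to 13891242 of ce10, and the gene is annotated on the plus strand with 2 exons. None of the 3 protein-coding genes on either side of it in gene order is listed in any table, and the same holds for the 3 on either side of lips-6 and of lips-11.

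**Figure D1:**
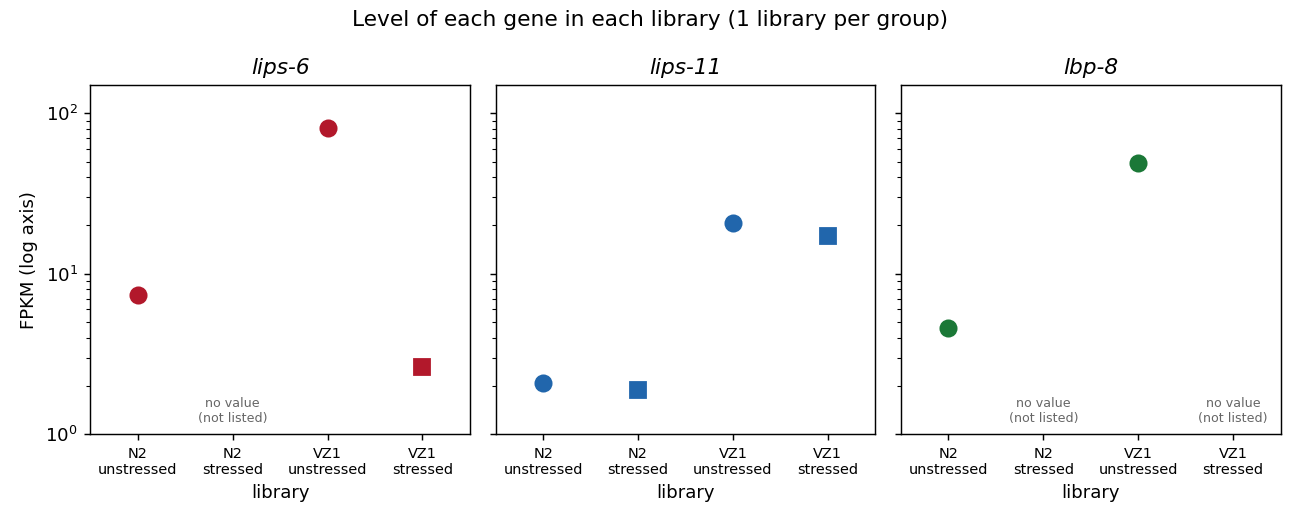
FPKM of lips-6, lips-11 and lbp-8 (vertical log axis) in each of the 4 libraries, with circles for unstressed and squares for stressed animals and 1 library per group. The lips-6 value falls from 81.1 FPKM in unstressed VZ1 to 2.63 FPKM in stressed VZ1, while lips-11 stands at 20.7 and 17.1 FPKM, and libraries with no listed value are marked.

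Between the unstressed strains the ratios of the 3 genes lay close together. VZ1 over N2 was 11.05-fold for lips-6 (log2 3.47), 10.7-fold for lbp-8 (log2 3.42) and 9.86-fold for lips-11 (log2 3.30). These 3 are the entire set that the table lists as higher in VZ1, 0.0208% of 14419 genes tested, against 60 lower genes (0.416%). In all, 0.437% of the genes tested were listed. No listed gene has a log2 ratio between that of lips-11 and −1.98, that of the least changed lower gene. The authors' deposited table gives lips-6 the smallest q it holds, 0.0141, which 51 listed genes share. In the authors' deposited table lips-11 and lbp-8 have a q of 0.0349, and 1 listed gene has a larger one. The authors' test compares 2 libraries and not 2 strains.

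The members were low in N2 beside the other genes of this table, whose median in N2, members included, was 126 FPKM. In 5 of the 63 listed genes, the members among them, the N2 level was at most that of lips-6, and the other two, F12E12.1 and F40G12.11, are listed at 0 in VZ1. Of the listed genes with a value above 0 in both libraries, 25 besides the members had a level in their lower library of at most 7.34 FPKM, and all 25 were lower in VZ1. The smallest size of log2 ratio among those 25 was 2.36, for puf-5, and the median was 4.25. The ratios of the members, 3.30 to 3.47, lie within that range.

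**Figure D2:**
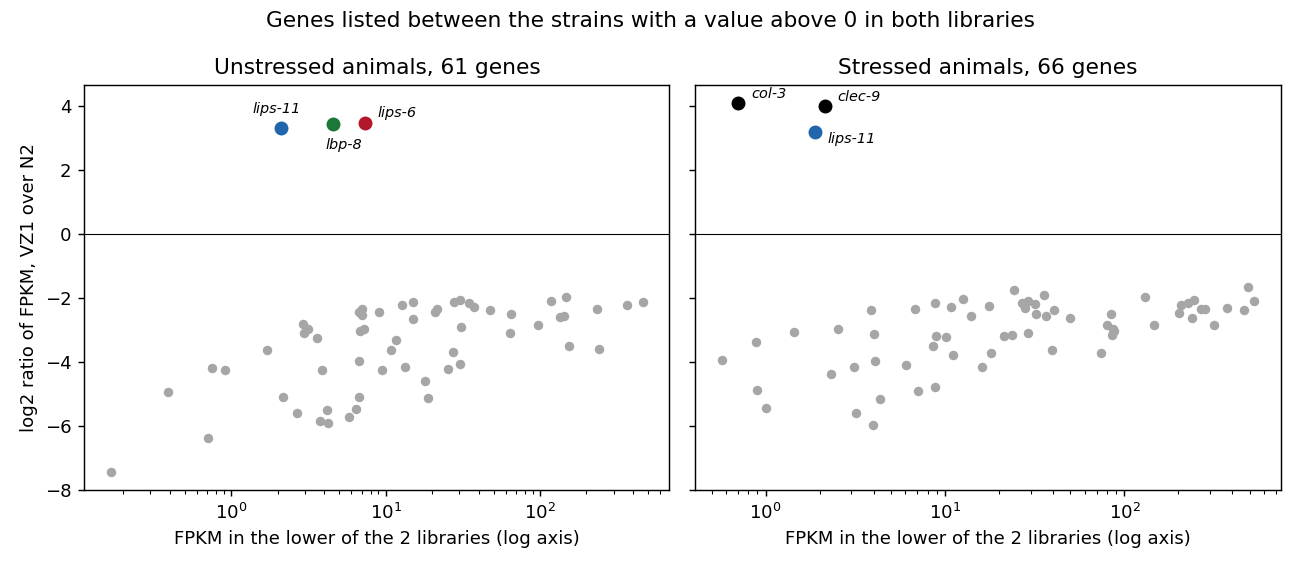
Log2 ratio of FPKM, VZ1 over N2, against the FPKM of the lower library (log axis) for the 61 genes of the unstressed and the 66 genes of the stressed strain table with values above 0 in both libraries. Each point is a gene, the genes higher in VZ1 are named, and lips-11 is above 0 in both panels at 3.30 and 3.18.

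Under arsenite lips-11 was the one member listed between the strains. Its ratio was 9.05-fold (log2 3.18), and the log2 ratio under stress minus that without stress was −0.12. The stressed strain table lists 3 genes as higher in VZ1, 0.0209% of 14358 tested, and 70 as lower (0.488%). The other two higher genes were the collagen gene col-3 (0.70 FPKM in N2 and 11.8 FPKM in VZ1) and clec-9, a C-type lectin gene (2.14 FPKM in N2 and 33.9 FPKM in VZ1). In all, 0.508% of the genes tested were listed. The q that the authors' deposited table gives lips-11 under stress is 0.0492, the largest listed, shared by 4 genes. That lips-6 and lbp-8 are not listed here does not show that their strain ratio changed with stress, since no difference of ratios was tested.

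For stress within VZ1, lips-6 was the one member listed. It fell from 81.01 to 2.63 FPKM, a 30.8-fold fall (log2 −4.95). It was second in size among the 11 listed falls with values above 0 in both libraries, after R08E5.3 (149 to 2.97 FPKM) and before the transporter gene pmp-5 (242 to 12.2 FPKM). Of the 18 falls listed, those to 0 FPKM have no finite ratio and are not in that rank. Falling genes made up 0.125% of the 14420 tested, and 0.735% were listed in all. In the authors' deposited table lips-6 has the smallest q for stress in VZ1, 0.0111, which 65 genes share. The unstressed VZ1 library is the high one in this comparison and in the strain comparison that chose lips-6, so the fall is not independent of the choice. The level of lips-6 in that library is nearly the same in both tables (ratio 0.999), although the locus starts 38 bp further left in the stress table. Across tables, stressed VZ1 was 2.79-fold below unstressed N2 (log2 −1.48).

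**Figure D3:**
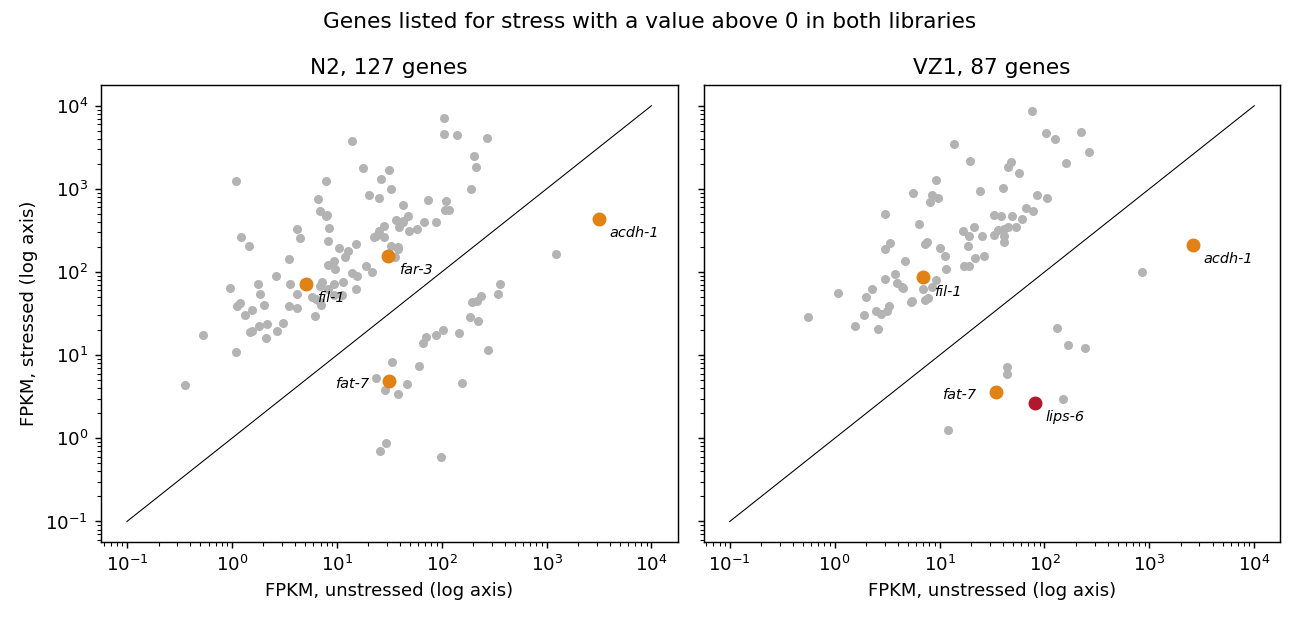
FPKM in stressed against unstressed animals (both log axes) for the genes listed for stress with values above 0 in both libraries, 127 in N2 and 87 in VZ1, with the line of equal levels and the listed lipid genes named. lips-6 lies below the line in VZ1 at 81.01 and 2.63 FPKM, and no lips or lbp gene is among those of N2.

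No member was listed for stress in N2, where 1.05% of 14397 genes tested were listed. For lips-11 the strain tables, which were normalised separately, give stress values in both strains. Stressed animals had 89.8% of the unstressed level in N2 (log2 −0.16) and 82.4% in VZ1 (log2 −0.28). The smallest fall listed within a stress table was log2 −2.003 in N2 and −2.63 in VZ1, both larger in size than the change of lips-11. Of the 32 genes in both strain tables with values above 0, 31 stood lower under stress in N2, with a median log2 of −0.80, and 25 in VZ1, with a median of −0.85. A smaller stress ratio in size than that of lips-11 was found for 3 of the 32 in N2 and for 4 in VZ1. Among the 32, lips-11 was the one gene higher in VZ1 in both conditions, while 30 were lower in both and col-3 changed sides.

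**Figure D4:**
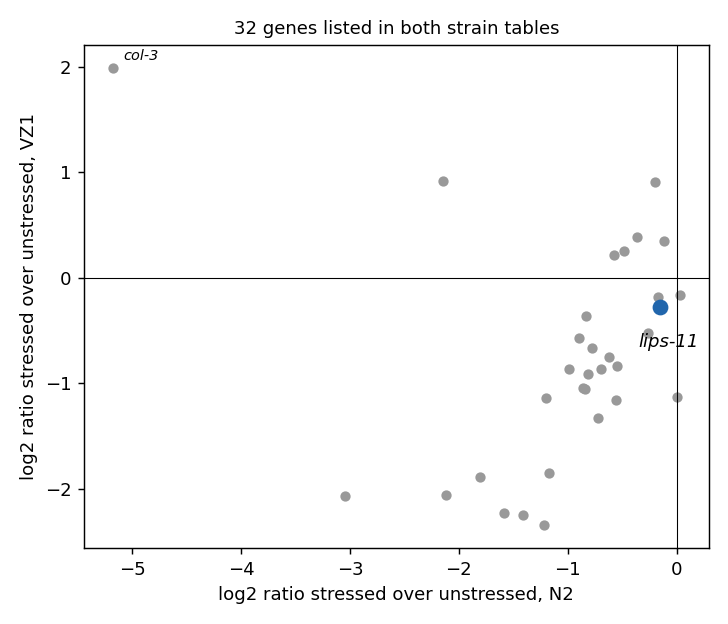
Log2 ratio of stressed over unstressed FPKM in VZ1 (vertical) against that in N2 (horizontal) for the 32 genes listed in both strain tables, 1 point per gene, with levels taken across tables that were normalised separately. lips-11 lies near the origin at −0.16 and −0.28, and col-3 lies farthest out at −5.18 and 1.99.

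The genes whose pattern was most like each member were sought by the smallest difference of centred log2 levels. For lips-6, over 3 libraries and 105 genes, the nearest was T13F3.6 at a root-mean-square difference of 0.70 (log2). T13F3.6 stood at 46.3 FPKM in unstressed N2, 166 FPKM in unstressed VZ1 and 13.4 FPKM in stressed VZ1, the same order of libraries as lips-6. The F-box gene fbxa-72 (1.13) and the stearoyl-CoA desaturase gene fat-7 (1.36) came next, with that same order of libraries. However, fat-7 was nearly level between unstressed N2 (31.6 FPKM) and unstressed VZ1 (34.8 FPKM). None of T13F3.6, fbxa-72 and fat-7 is listed between the strains, so their strain differences come from separately normalised tables. All of these genes fell under stress in VZ1, and unlike lips-6 they are also listed as falling in N2. T13F3.6 fell there from 46.3 to 4.54 FPKM.

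For lips-11, over 4 libraries and 104 genes, the nearest genes were fbxa-72 at 1.66, T13F3.6 at 1.81 and C50F7.5 at 1.84. None of them is listed between the strains, and none changed as little under stress as lips-11 (log2 −0.16 in N2 and −0.28 in VZ1). In N2 and VZ1, fbxa-72 fell by log2 −2.25 and −2.65 and T13F3.6 by −3.35 and −3.63. C50F7.5 rose instead, by log2 2.49 in N2 and 3.43 in VZ1. Only genes with a value above 0 in every library could enter this search for lips-11, which leaves out lips-6 and lbp-8. For lbp-8, which has 2 values, the nearest ratios of 132 genes were those of lips-6 (a log2 difference of 0.047) and lips-11 (0.12), and the next, that of T13F3.6, was 1.58 away. The same unstressed strain ratio chose the members, so nothing is read from their likeness to each other. The points compared share their libraries, the genes are those called by the authors, and some levels come from separately normalised tables.

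Lists of related genes place the members among their families. Of the 16 lips genes, 2 of them pseudogenes, 14 are listed in no table, and of the 9 lbp genes 8 are listed in none. In unstressed animals the listed share was 12.5% of the lips genes and 11.1% of the lbp genes beside 0.437% of all genes tested, and nothing is read from this since the same ratio chose the members. None of the lipl lysosomal lipase genes, lipl-4 included, is listed in any table. Neither are atgl-1, the gene of the main triglyceride lipase, and hosl-1, the gene of the hormone-sensitive lipase. The regulators nhr-49, nhr-80, mdt-15, sbp-1 and hlh-30 are not listed either. Over 13 lipid lists with 131 genes, 7 genes are listed somewhere and 7 of the lists have no listed gene.

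The 4 listed lipid genes that are not members were listed for stress and in neither strain table. For fil-1, a lipase gene that fasting induces, stress brought a rise from 5.06 to 72.7 FPKM in N2 and from 6.998 to 86.04 FPKM in VZ1, the opposite direction to that of lips-6 in VZ1. Levels of fat-7 fell under stress from 31.6 to 4.93 FPKM in N2 and from 34.8 to 3.60 FPKM in VZ1. The acyl-CoA dehydrogenase gene acdh-1, which acts in the breakdown of short-chain acyl groups, fell from 3144 to 430 FPKM in N2 and from 2595 to 209 FPKM in VZ1, at loci merged with other genes. The fatty acid- and retinol-binding protein gene far-3 is listed for stress in N2 only, where it rose from 31.0 to 156 FPKM. Of the 131 lipid genes, 4 were listed for stress in each strain (3.05%), beside 1.05% of all genes tested in N2 and 0.735% in VZ1, with 2 higher and 2 lower in N2 and 1 higher and 3 lower in VZ1. Of all genes tested, 0.799% were listed as higher and 0.25% as lower in N2, and 0.61% and 0.125% in VZ1. Of the 3 lower lipid genes in VZ1, lips-6 is one, a member chosen by its level in VZ1 and N2. The lipid lists were chosen with earlier results of these data known, so nothing is read from their listed shares. The listed genes are not the same in both strains, since acdh-1, fat-7 and fil-1 are joined by far-3 in N2 and by lips-6 in VZ1. The median log2 was −0.17 over the N2 set and −3.46 over the VZ1 set. These sets differ by far-3 (log2 2.33 in N2) and lips-6 (−4.95 in VZ1), so no strain difference is read from the medians. The shared genes went the same way in both strains.

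Yolk and cuticle genes differed between the strains in the same libraries. Of 6 vitellogenin genes, whose yolk proteins the adult intestine makes, 4 were lower in unstressed VZ1, where their summed level was 19.04 FPKM beside 572 FPKM in N2. Of 163 collagen and other cuticle genes 24 were lower in unstressed VZ1, with a summed level of 1153 FPKM beside 9396 FPKM in N2. The listed share was 66.7% of the vitellogenin and 14.7% of the cuticle genes, all lower, beside 0.416% of all genes tested that were listed as lower. None of these listed markers was at 0. Under stress 1 vitellogenin gene was lower in VZ1 (12.6 beside 52.3 FPKM), and of the cuticle genes 22 were lower and 1 higher (2440 beside 14086 FPKM summed). The listed share was then 16.7% of the vitellogenin and 14.1% of the cuticle genes, beside 0.508% of all genes tested. These lists too were chosen with earlier results of these data known, so nothing is read from their listed shares. For stress within N2, 5 of the 6 vitellogenin genes are listed, all lower, with a summed level of 85.9 FPKM beside 580 FPKM unstressed. For stress within VZ1 no vitellogenin gene is listed. None of 9 intestinal markers, elt-2 and ges-1 among them, is listed by these names in any table, and 8 of the 9 are names in the annotation used. The part of these yolk and cuticle differences in the values of lips-6, lips-11 and lbp-8 was not tested. In whole animals, fewer cells of a type and less RNA per cell cannot be told apart.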

How the data were processed

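The tools were Cufflinks, TopHat and Bowtie2 with genome build ce10, per the submitters' processing notes. Their versions and the gene annotation were not given in the sources used here. The 4 deposited tables follow Cuffdiff's columns, per the file headers, with FPKM values that the authors made separately for each pair of libraries. Each gene also has the authors' p-value and q-value, per the file headers. Every listed gene carries the authors' mark of significance. How many genes the authors tested was computed as q times rank over p, a step tested on simulated data. Ratios are log2 of the FPKM values with no pseudocount, computed with Python 3.11.15 and pandas 2.3.3. No test of strain or stress over the 4 libraries was made, and no group has a replicate. Depth is unknown, so no counting intervals are given. A library's level was taken from the strain table where it has one. For genes in both tables of a library, the stress table's level was set over the strain table's. The median ratio was 1.02 in unstressed N2 (9 genes, range 0.769 to 1.07) and 0.989 in stressed N2 (7 genes, range 0.975 to 0.995).

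Gene coordinates are those of the tables. Exon counts, strand and gene order are from Ensembl release 115 and RefSeq, both of assembly WBcel235, and no coordinate of that build is used. The members, the lists and the rule for genes named were chosen with earlier results of these data known. The rule names the members, every listed gene of the lipid lists, the 3 genes most like each member, all genes higher in VZ1, and listed neighbours in gene order. The rule's genes nearest in q are given as counts, because q-values are tied. R08E5.3, pmp-5, puf-5, F12E12.1 and F40G12.11, and the members of the lists that are named as not listed, were named after values were seen.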

Additional observations from a re-analysis of the deposited data

How the results depend on the processing

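The 5 ratios of the members kept their direction with a pseudocount of 1 or 0.1 FPKM, under which the strain ratios were log2 2.65 (lips-11 under stress) or higher and the stress ratio of lips-6 in VZ1 was −4.50 and −4.89. With calls kept only at a q of at most 0.02, lips-6 was still called in both of its comparisons. The calls of lips-11 without stress (log2 3.30) and with stress (3.18) and of lbp-8 (3.42) were lost, and the genes higher in VZ1 numbered 1 in place of 3 without stress and 1 in place of 3 with stress. The stress ratio of lips-11 in N2 was log2 −0.20 with levels scaled by the genes that share a table. The same scaling could not be made in VZ1, since 0 genes share a table for stressed VZ1. With a minimum of 1 FPKM the genes higher in VZ1 stayed at 3 in each condition, and current gene names changed no count of lipid genes. Folds from the authors' deposited column were not run, because it holds error text on some lines. No paired analysis was possible because each group has 1 library. The lack of replicates, and tables that hold called genes only, limit what each value shows.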
